A study of Mus musculus with 6 samples.

Results

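Polycomb proteins keep genes silent by acting on histones. Polycomb repressive complex 2 (PRC2) methylates lysine 27 of histone H3 through the paralogous enzymes Ezh1 and Ezh2, which need Eed and Suz12 as partners. Polycomb repressive complex 1 (PRC1) carries a ubiquitin ligase for histone H2A, and in its canonical form a Cbx protein binds the methylated histone while a Phc protein links complexes together. In embryonic stem cells both complexes cover promoters of developmental regulators, and several subunits are interchangeable, so the composition of the complexes can differ between cell types.

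The set examined here held 10 genes chosen by name, out of 55450 annotated genes. Ezh2, Ezh1, Eed, Suz12, Jarid2 and Mtf2 encode PRC2 proteins, and Phc1, Cbx7, Cbx2 and Cbx6 encode PRC1 proteins. All 10 were among the 18490 genes with enough tags to be tested, where a tag is a short read from the 5′ end of a capped RNA. Start sites of nuclear RNA were measured by cap analysis of gene expression (CAGE) in 3 libraries of mouse embryonic stem cells (mESCs) and 3 libraries of mouse oligodendrocyte progenitor cells (mOPCs). The mESCs were line R08, grown without feeders in serum medium with leukemia inhibitory factor. The mOPCs were Oli-neu, a line derived from progenitors, grown on poly-L-lysine with N2 supplement, thyroid hormones, bFGF and PDGF-BB. Neither line carried a treatment or a deletion that the labels name. Each cell type is 1 line, and nothing in the labels says that the libraries of a line came from separate cultures, so p-values measure the spread between these libraries, which may be technical. The tags of each cell type carry 1 library label of their own, so library preparation and cell type cannot be told apart.

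Libraries held 16657021 to 40928704 tags, so that 1 tag of the smallest library equals 0.0600 CPM. Levels in CPM are tags within 500 bp of the annotated 5′ ends of a gene, on its strand, per 1000000 tags of the library. Each RNA gives 1 tag whatever its length, so levels of different genes can be compared without dividing by length. Protein levels and the make-up of the complexes were not measured here, so shares of tags are not shares of protein. The 8 embryonic stem cell markers summed to 3959 to 4307 CPM in mESC libraries and to 17.3 to 23.4 CPM in mOPC libraries, where 5 of them, including Pou5f1 and Nanog, stood at 0. All 8 progenitor markers were higher in mOPCs, with sums of 2839 to 3001 CPM against 15.9 to 16.9 CPM. Primitive endoderm markers summed to 30.1 to 36.9 CPM in mESCs and to at most 0.0347 CPM in mOPCs, and mature oligodendrocyte markers to 22.8 to 25.3 CPM in mESCs and 312 to 344 CPM in mOPCs. Astrocyte markers summed to 78.7 to 93.5 CPM in mESCs and 14.5 to 16.0 CPM in mOPCs, neuron markers to 11.8 to 14.0 CPM and 101 to 121 CPM, and fibroblast markers to 17.9 to 23.4 CPM and 9.67 to 12.3 CPM. The genes within these sums did not move alike. Without overlap, 3 of 6 neuron markers were higher in mESCs and 2 in mOPCs. For astrocyte markers it was 2 and 2 of 5, and for fibroblast markers 2 and 1 of 5. Microglia markers stayed at or below 1.197 CPM in every library. The part of such cells in the results below was not tested, and in these bulk libraries fewer cells of a type and less RNA per cell cannot be told apart.

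mOPCs had less nuclear RNA starting at 7 of the 10 genes and more at 3. Ezh2, Eed, Suz12, Jarid2, Mtf2, Phc1 and Cbx7 were lower in mOPCs, and Ezh1, Cbx2 and Cbx6 were higher. Of all genes tested with edgeR's quasi-likelihood test, 48.9% were lower and 42.1% higher at an adjusted p under 0.05, so the count of calls by itself says little about Polycomb genes. With a change of at least 2-fold required as well, 6 members were lower and 2 higher, where 37.2% and 29.8% of all genes were. The median log2 fold change (mOPCs over mESCs) was -1.49 for the 10 genes and -0.19 for all genes tested. The members were chosen with earlier results of these data known, so these contrasts describe the set only. The order of levels also differed between the lines. In mESCs Jarid2 stood far above the rest, Phc1 and Suz12 overlapped next to it, and Eed, Ezh2, Cbx7 and Mtf2 followed without overlap, with Cbx6, Ezh1 and Cbx2 at the bottom. In mOPCs Jarid2 was again highest, followed by Mtf2 and Ezh2. There Eed, Cbx6, Cbx7 and Suz12 overlapped with their neighbours in that order, Ezh1 and Cbx2 came below them, and Phc1 was last.

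**Figure D1:**
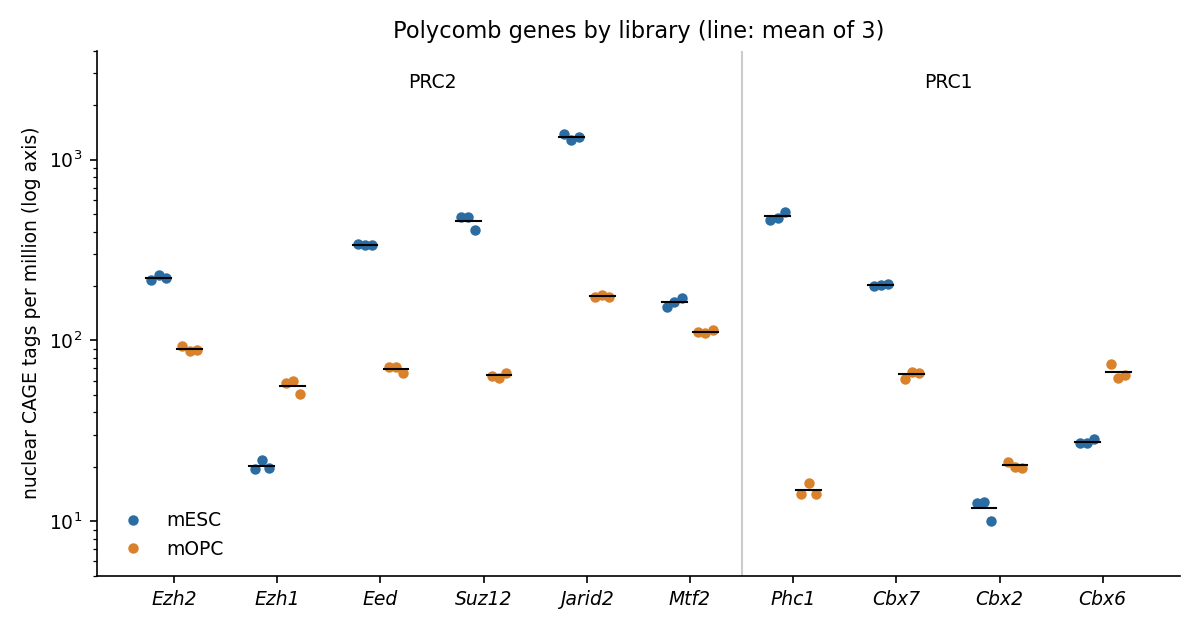
Level of each of the 10 Polycomb genes in every library, in CPM of nuclear CAGE tags on a log axis; points are the 3 mESC (blue) and 3 mOPC (orange) libraries and lines their means. The libraries of a line lie close together, and the lines are furthest apart for Phc1 (485 against 14.8 CPM) and closest for Mtf2 (163 against 112 CPM).

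The genes of the 2 PRC2 enzymes moved in opposite directions. Ezh2, the main H3K27 methyltransferase of dividing cells, had 216, 230 and 220 CPM in mESCs and 93.1, 87.9 and 89.1 CPM in mOPCs. Every mESC library was thus above every mOPC library. The log2 fold change was -1.32 (SE 0.08; edgeR adjusted p = 5.92e-22). Ezh1, its less active paralog that is typical of resting and differentiated cells, had 19.5, 21.9 and 19.6 CPM in mESCs against 58.2, 59.4 and 50.2 CPM in mOPCs. All mOPC libraries were higher, with a log2 fold change of 1.44 (SE 0.09; edgeR adjusted p = 7.11e-21).

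Within each library, Ezh2 supplied 91.7%, 91.3% and 91.8% of the tags of the pair in mESCs and 61.5%, 59.7% and 63.9% in mOPCs. Ezh2 was still the larger share in every mOPC library. The mean share fell from 91.6% ± 0.265 to 61.7% ± 2.14 (SD, n = 3 each). The two-sided exact permutation test gave p = 0.1, the smallest that 3 libraries against 3 allow, and 0.106 after Benjamini-Hochberg adjustment over the 18 paralog shares compared. In terms of a ratio, there were 10.9 ± 0.371 Ezh2 tags for each Ezh1 tag in mESCs and 1.62 ± 0.148 in mOPCs. The sum of both genes was 242 ± 8.22 CPM and 146 ± 6.10 CPM, so the gain of Ezh1 tags was smaller than the loss of Ezh2 tags.

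The starts of both genes are shown because the genes differed also in which bases were used. Nearly all Ezh2 tags lay in 1 start cluster at chr6:47594975-47595066 (mm10, minus strand) around the 5′ ends of protein-coding transcripts. A start cluster joins positions of at least 1 CPM in a library that lie within 20 bp of each other. Over the mESC libraries combined the most used position was 47595031, although 2 of the 3 libraries peaked at 47595025. All mOPC libraries peaked at 47594996, 35 bp downstream of 47595031. The position 47594996 took 12.4%, 10.6% and 11.4% of the cluster's tags in mESCs and 23.4%, 20.9% and 24.1% in mOPCs, without overlap. The position 47595031 took 14.2%, 16.9% and 14.9% in mESCs and 8.76%, 8.77% and 8.15% in mOPCs. The pair was picked for being the most used positions of the combined libraries of each line, so no test is given. Ezh1 kept the same top position in all 6 libraries, 101226443 on chromosome 11 (minus strand), 1 bp upstream of an annotated 5′ end. The sequences run 20 bases before to 9 after the listed position, 5′ to 3′, with the listed base and the next one in capitals.
Ezh2, most used over the mESC libraries combined: agcgatggcgattgggttgcTGcgtttggc
Ezh2, most used in mOPCs: gtccggtcgcgtccgacaccCAgtgggaca
Ezh1, most used in both: gcggcgcaggggcgtggccgTAgcgcgcag
All 3 pairs in capitals are a pyrimidine followed by a purine, the usual pair at mammalian start sites. Over all genes whose top position fell in a RefSeq promoter window, the listed base and the next one formed such a pair in 88.1% of 6398 genes in mESCs and 88.7% of 6271 in mOPCs. The base before and the listed base did so in only 1.17% and 1.13%. The listed positions therefore lie 1 base upstream of the usual start base, which does not matter for windows of 500 bp.

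Eed and Suz12, without which the PRC2 enzymes are neither stable nor active, fell more steeply than Ezh2. Eed, which reads the methylated histone, had 342, 336 and 338 CPM in mESCs and 71.5, 71.0 and 65.8 CPM in mOPCs. Suz12, the scaffold of the complex, had 484, 484 and 406 CPM against 63.8, 62.3 and 66.2 CPM. The third mESC library was the lowest of its group for Suz12 and still far above the mOPC libraries. Log2 fold changes were -2.31 (SE 0.09; edgeR adjusted p = 2.43e-32) for Eed and -2.86 (SE 0.09; edgeR adjusted p = 2.76e-35) for Suz12. Rbbp4 and Rbbp7, histone-binding proteins of PRC2 that also serve other complexes, were lower in mOPCs too, at -1.25 and -2.71. Of the 6 genes of the PRC2 core, Ezh1 was thus the only one that rose, under every alternative tried.

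Jarid2 and Mtf2 belong to alternative forms of PRC2 and help to bring it to chromatin. Jarid2 had the highest level of the set, with 1379, 1291 and 1335 CPM in mESCs. In mOPCs it had 174, 179 and 174 CPM, a log2 fold change of -2.95 (SE 0.09; edgeR adjusted p = 4.22e-36). Mtf2, a Polycomb-like protein, changed least, from 154, 164 and 172 CPM to 111, 110 and 114 CPM. The groups did not overlap, and the log2 fold change was -0.57 (SE 0.08; edgeR adjusted p = 4.91e-09). Among the Polycomb-like genes Mtf2 held nearly all tags in both lines, 97.3% ± 0.159 in mESCs and 97.6% ± 0.358 in mOPCs, a difference smaller than the SD in mOPCs (exact permutation p = 0.3; 0.300 adjusted). Its paralog Phf1 had 106 tags over the mESC libraries and none over the mOPC libraries, which makes it at least 44.4-fold higher in mESCs when 3 tags are set as the floor. Phf19 had 2.69, 3.36 and 3.20 CPM in mESCs and 2.69, 3.16 and 2.42 CPM in mOPCs, with overlapping groups and edgeR adjusted p = 0.360.

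Tags of the Cbx genes, whose proteins give canonical PRC1 its grip on the methylated histone, divided differently in the 2 lines. Among the Cbx genes compared here, Cbx7 dominated in mESCs, whereas in mOPCs Cbx6 and Cbx7 had similar shares. Cbx7 had 200, 202 and 205 CPM in mESCs and 61.2, 67.2 and 66.4 CPM in mOPCs, a log2 fold change of -1.66 (SE 0.08; edgeR adjusted p = 4.18e-26). Cbx6 rose from 26.97, 26.96 and 28.5 CPM to 73.6, 61.8 and 64.5 CPM, with a log2 fold change of 1.25 (SE 0.09; edgeR adjusted p = 6.18e-19). Cbx2 had 12.6, 12.8 and 10.0 CPM in mESCs and 21.4, 19.97 and 19.7 CPM in mOPCs. No mESC library of Cbx6 or Cbx2 reached an mOPC library. The log2 fold change of Cbx2 was 0.75 (SE 0.11; edgeR adjusted p = 1.62e-08), and 1.35 when only tags within 100 bp of annotated 5′ ends were counted. These narrow windows held position 119023055, the most used in mOPCs, but not 119023081, the most used in mESCs.

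Cbx6 cannot be separated from Npcd, an annotated gene with the same start at position 79834237 of chromosome 15. Of the Cbx6 tags, 99.3% in mESCs and 99.5% in mOPCs lay at positions within reach of both genes. No other member shared more than 0.0317% of its tags with another gene.

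Cbx8, another canonical paralog, was nearly silent in mESCs and was added for the comparison of shares. It had 0.686, 0.300 and 0.543 CPM in mESCs against 21.8, 26.6 and 23.1 CPM in mOPCs, without overlap. The log2 fold change of Cbx8 was 5.38 (SE 0.18).

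Of the tags of Cbx2, Cbx6, Cbx7 and Cbx8 combined, Cbx7 held 83.2%, 83.4% and 84.0% in mESCs and 34.4%, 38.3% and 38.2% in mOPCs. Cbx6 held 11.4% ± 0.286 in mESCs and 37.9% ± 3.16 in mOPCs. Cbx8 went from 0.211% ± 0.0813 to 13.6% ± 1.48, and Cbx2 from 4.89% ± 0.667 to 11.6% ± 0.379. For all 4 shares the libraries of the 2 lines did not overlap, and each exact permutation test gave p = 0.1, the smallest possible, and 0.106 adjusted over the 18 shares. In mOPCs the shares of Cbx6 and Cbx7 overlapped, at 41.4%, 35.2% and 37.1% for Cbx6. Without the positions shared with Npcd, the mean share of Cbx7 was 94.2% in mESCs and 59.3% in mOPCs.

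**Figure D2:**
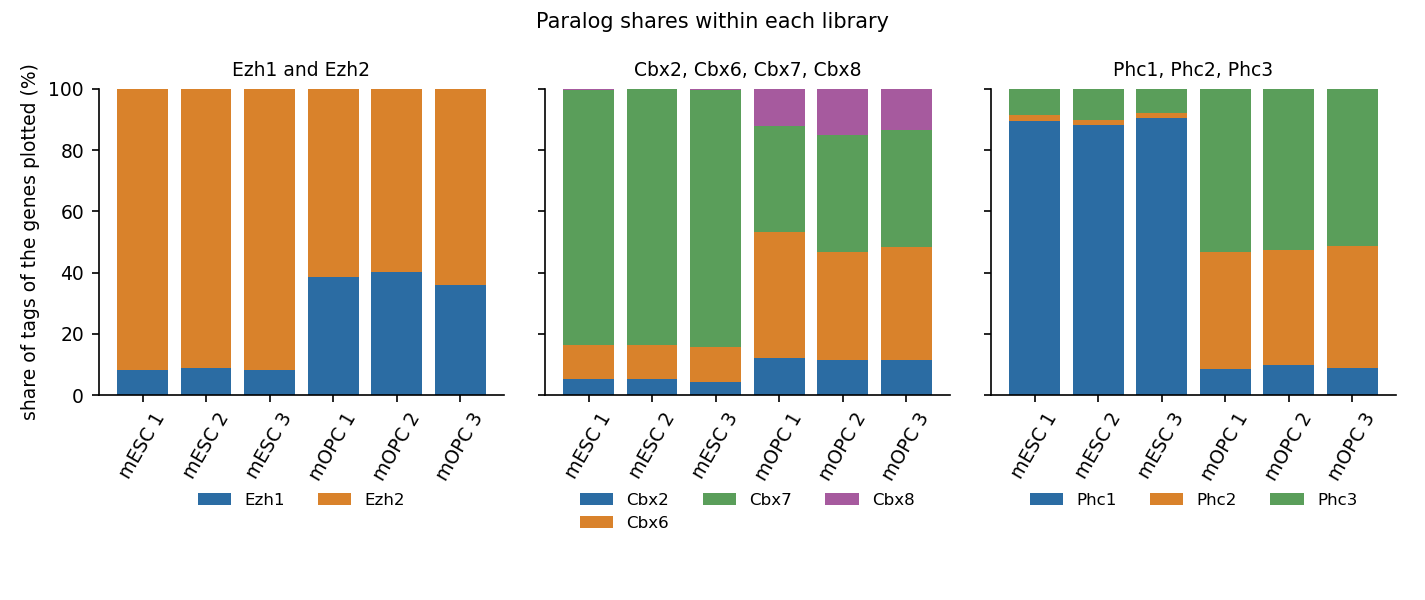
Share of each gene in the tags of the genes plotted together (vertical axis, %) within each of the 3 mESC and 3 mOPC libraries, for Ezh1 and Ezh2, for Cbx2, Cbx6, Cbx7 and Cbx8, and for the Phc genes. Ezh2, Cbx7 and Phc1 made up 91.6%, 83.6% and 89.5% of these tags in mESCs and 61.7%, 37.0% and 9.15% in mOPCs.

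Phc1, whose SAM domain lets PRC1 complexes join into chains, had the largest decrease of the set. Levels of 466, 478 and 511 CPM in mESCs stood against 14.2, 16.2 and 14.1 CPM in mOPCs, a log2 fold change of -5.05 (SE 0.10; edgeR adjusted p = 1.98e-45), and -5.80 in windows of 100 bp. The narrow windows left out position 122339832, the most used of a cluster that held 7.82% of Phc1 tags in mESCs and 44.2% in mOPCs. Phc2 rose from 9.20 ± 0.120 CPM to 62.4 ± 0.958 CPM and Phc3 from 47.9 ± 5.88 CPM to 85.0 ± 3.24 CPM. Phc1 therefore supplied 89.5% ± 1.14 of Phc tags in mESCs and 9.15% ± 0.711 in mOPCs, where Phc3 held 52.4% ± 0.914 and Phc2 38.5% ± 1.08. The Phc sum was lower in mOPCs, at 542 ± 22.4 CPM in mESCs and 162 ± 3.39 CPM in mOPCs.

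Several members also changed the place where transcription started within the gene. When 5′ ends with overlapping windows were merged into start regions, 8 members had at least 2 regions to compare, and the use of regions differed in 5 of them (Cbx7, Jarid2, Suz12, Mtf2 and Eed) by edgeR's test of differential use. Of all 3378 genes tested this way 68.6% were called, so such a difference was common. For Eed and Mtf2 the regions called were minor ones inside the gene. The main region held 99.6% of Eed tags in mESCs and 98.6% in mOPCs, and 97.0% and 99.0% of Mtf2 tags. The pair of Eed clusters described below lies within its main region. With start clusters as the unit, chosen after the data were seen because windows merge neighbouring starts, all 6 members with at least 2 clusters were called (Cbx7, Phc1, Mtf2, Jarid2, Eed and Ezh2), against 68.0% of 6502 genes. A cluster needed 1 CPM in only 1 library, so some clusters of Cbx7, Phc1, Jarid2 and Eed entered through mESC tags alone and held no mOPC tag. The cluster calls and their p-values therefore describe these clusters only.

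Cbx7 had a promoter in mESCs that was almost unused in mOPCs. Its main mESC start was chr15:79971124-79971130 (minus strand), 5 bp upstream of the first exon of the protein-coding transcript Cbx7-204. The 3 mESC libraries held 4612, 2180 and 2329 tags there, and the mOPC libraries 0, 0 and 1. This start supplied 62.5% ± 2.13 of Cbx7 tags in mESCs and 0.0123% ± 0.0213 in mOPCs. The ratio of the pooled levels was 11461, with a 95% exact binomial interval from counting error alone of 2056 to 452730. The promoter region at chr15:79932016-79933268, whose first cluster lies 38340 bp downstream, was used in both lines. It had 67.6, 59.97 and 69.0 CPM in mESCs and 61.2, 67.2 and 66.3 CPM in mOPCs, and these groups overlapped. Means were 65.5 ± 4.85 CPM and 64.9 ± 3.27 CPM, so the lower total of Cbx7 in mOPCs came with the absence of the distal starts, while the levels of the proximal region overlapped. A region in between, chr15:79933330-79934399, had 7.77 ± 0.574 CPM in mESCs and no tag in any mOPC library, at least 240.0-fold less with the floor of 3 tags.

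Within the proximal region of Cbx7 the levels did not move alike. The cluster at chr15:79932720-79932790 rose from 22.1 ± 1.21 CPM to 35.4 ± 1.51 CPM, and the cluster at chr15:79932568-79932597 went from 9.65 ± 0.921 CPM to 5.02 ± 0.434 CPM. The sequence around the position 79932730, the most used of the region in all 6 libraries, is shown since it is the start both lines had in common.
Cbx7, proximal start: gcacgcgcgcgcgcacccgcTCtctggcgc

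Phc1 was lower in mOPCs at each of its start clusters, but by very different amounts. The cluster at chr6:122340489-122340522 (minus strand), at the 5′ end of the protein-coding transcript Phc1-209, held 7634, 3218 and 3829 tags in mESCs and 0, 1 and 0 in mOPCs. It made up 41.4% ± 1.56 of the tags of Phc1 in mESCs and 0.0712% ± 0.123 in mOPCs. The ratio of pooled levels was 18447 (95% exact binomial interval 3310 to 728676). A pair of clusters further downstream gave most of what remained in mOPCs.
Phc1, start used in mESCs: CAgtttctgtgcggcgttgtttcccgcctt
The transcript Phc1-209, from which this sequence was read, begins at the listed base, so the bases before it are not shown.

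The cluster of Phc1 at chr6:122339786-122339872 had 37.9 ± 2.41 CPM in mESCs and 6.56 ± 0.476 CPM in mOPCs, 5.88-fold less by pooled tags. The cluster at chr6:122339564-122339653 had 197 ± 17.5 CPM and 5.05 ± 0.258 CPM, 37.8-fold less. As a result the former rose from 7.82% ± 0.537 to 44.2% ± 1.24 of Phc1 tags, and the latter went from 40.6% ± 2.13 to 34.1% ± 1.59. The test of cluster use gave an adjusted p of 1.08e-42 for Phc1 in edgeR, whereas the merged regions, which put all 3 clusters together, gave 0.689.

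Eed had a pair of clusters 373 bp apart. The upstream one, chr7:89980935-89980998 (minus strand), fell from 57.7 ± 3.76 CPM to 29.9 ± 2.61 CPM, and the downstream one, chr7:89980516-89980625, from 255 ± 6.64 CPM to 33.4 ± 0.320 CPM. The upstream cluster held 16.9%, 18.3% and 15.9% of Eed tags in mESCs and 44.3%, 43.9% and 40.9% in mOPCs, without overlap. The downstream cluster, within an untranslated exon, went from 75.1% ± 1.56 to 48.3% ± 2.70 (edgeR adjusted p = 4.84e-20 for cluster use of the gene).
Eed, downstream cluster, most used over the combined libraries of either line: ggtgtggcggaggccccgccCGaggcggca
Eed, upstream cluster, most used over the mESC libraries combined: gttcgtttgcagcgggtcggAGatcgaagg
Eed, upstream cluster, most used over the mOPC libraries combined: cgatccaggccacagactttCGttcgtttg
The mESC position of the upstream cluster is one of 3 among 19 member sequences read here whose pair in capitals is not a pyrimidine followed by a purine.

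Jarid2 kept its main cluster, chr13:44731268-44731364 (plus strand), with 92.2% ± 0.563 of tags in mESCs and 85.8% ± 0.411 in mOPCs. Upstream starts at chr13:44729644-44729658, in an exon of the protein-coding transcript Jarid2-212, had 229, 120 and 162 tags in mESCs and none in mOPCs, at least 214-fold less with the floor of 3 tags. A region inside the gene went the other way. At chr13:44840191-44841283 the mESC libraries had 0.238, 0.240 and 0.217 CPM and the mOPC libraries 2.28, 2.01 and 2.49 CPM. There the levels were higher in every mOPC library although the gene as a whole was lower, and the region's share rose from 0.0174% ± 0.00118 to 1.29% ± 0.156. Tags inside Jarid2 but outside every window of a 5′ end also took a larger part in mOPCs. They made up 4.06% ± 0.234 of all tags of the gene in mESCs and 9.83% ± 0.327 in mOPCs. The region at chr13:44733540-44734540 had 3.84 ± 0.422 CPM and 4.75 ± 0.369 CPM.

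Mtf2 narrowed its starts. Its main cluster, chr5:108065702-108065731 (plus strand), held 86.0% ± 1.37 of tags in mESCs and 95.1% ± 0.424 in mOPCs. A small neighbour at chr5:108065752-108065761 fell from 6.52 ± 0.183 CPM to 0.235 ± 0.0309 CPM, while the main cluster went from 140 ± 9.99 CPM to 106 ± 2.40 CPM. The span from the 10th to the 90th percentile of the tags in the main region was 29 bp in every mESC library and 11 bp in every mOPC library. For Suz12, the regions called were minor ones inside the gene. One had 0.651 ± 0.150 CPM in mESCs and 0.514 ± 0.159 CPM in mOPCs, and the other 0.758 ± 0.249 CPM and 0.380 ± 0.0603 CPM. The main region of Suz12 held 99.7% and 98.6% of tags, but starts spread out within it. Its cluster at chr11:79993064-79993133 (plus strand) went from 97.1% ± 0.0941 of tags in mESCs to 84.6% ± 2.62 in mOPCs. The span from the 10th to the 90th percentile was 34 bp in every mESC library and 132 to 177 bp in mOPC libraries.

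**Figure D3:**
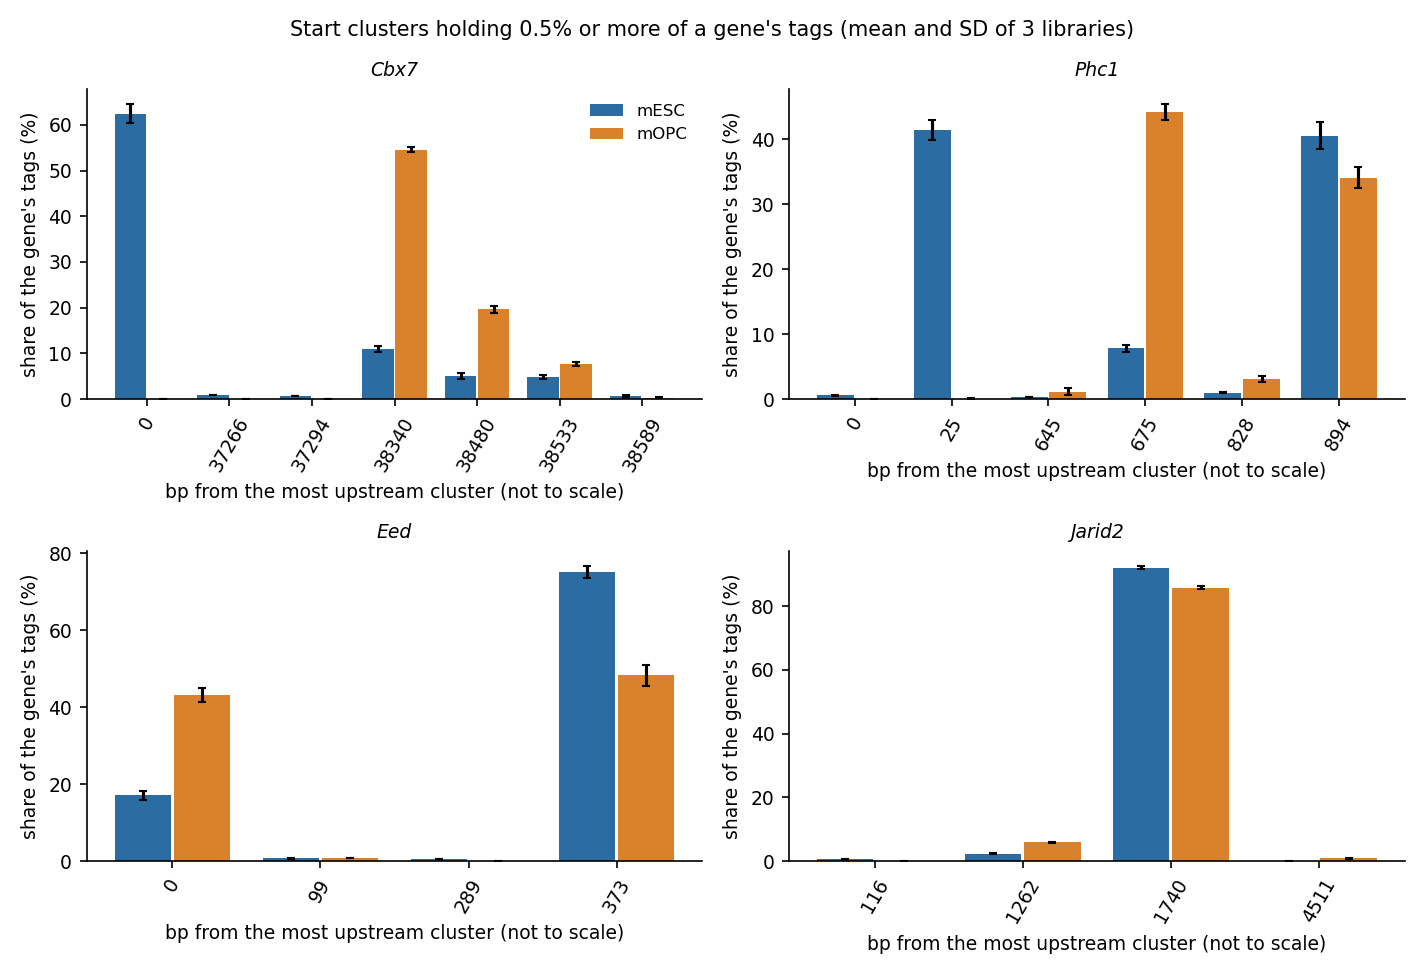
Share of the tags of Cbx7, Phc1, Eed and Jarid2 (vertical axis, %) in each start cluster with at least 0.5% in either line, ordered by distance in bp downstream of the most upstream cluster; bars are means and error bars SDs of 3 mESC (blue) and 3 mOPC (orange) libraries. The upstream clusters of Cbx7 (62.5%) and Phc1 (41.4%) appear in mESCs and are missing in mOPCs.

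In the start region with the most tags over both lines, 5 of the 10 members (Ezh1, Jarid2, Mtf2, Cbx6 and, in its proximal region, Cbx7) had the same most used position in all 6 libraries, and 4 of them, without Cbx7, when libraries were thinned to the depth of the smallest. For Cbx2 the most used base inside a single cluster differed between the lines, while for Suz12 1 mESC library peaked at 79993106 and the other 5 libraries at 79993086 of chromosome 11 (plus strand). For Suz12 the position 79993086 took 11.9%, 12.7% and 13.0% of the cluster in mESCs and 20.2%, 22.3% and 21.0% in mOPCs. The position 79993106, 20 bp downstream, took 15.4%, 12.3% and 11.8% in mESCs and 11.8%, 12.2% and 13.3% in mOPCs, where the groups overlapped. For Cbx2 the position 119023055 of chromosome 11 (plus strand) took 15.2%, 10.7% and 14.2% in mESCs and 25.3%, 26.7% and 24.8% in mOPCs. At 119023081, 26 bp downstream, the shares of Cbx2 were 22.6%, 27.7% and 19.6% in mESCs and 6.70%, 6.40% and 7.99% in mOPCs, without overlap. These positions were picked for being the most used of the combined libraries of a line, so no test is given. Their sequences are shown to let the starts be compared.
Suz12, upstream, higher share in mOPCs: gaaagtgggcggagcgaggcCAgggtaggg
Suz12, downstream: cagggtagggtgagcggcctCCgaagcgga
Cbx2, upstream, higher share in mOPCs: gcgcggcgggggcggcgcttTGtgtgcagc
Cbx2, downstream, higher share in mESCs: cagcagtgagccggggtctgCGgggcgcgg

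**Figure D4:**
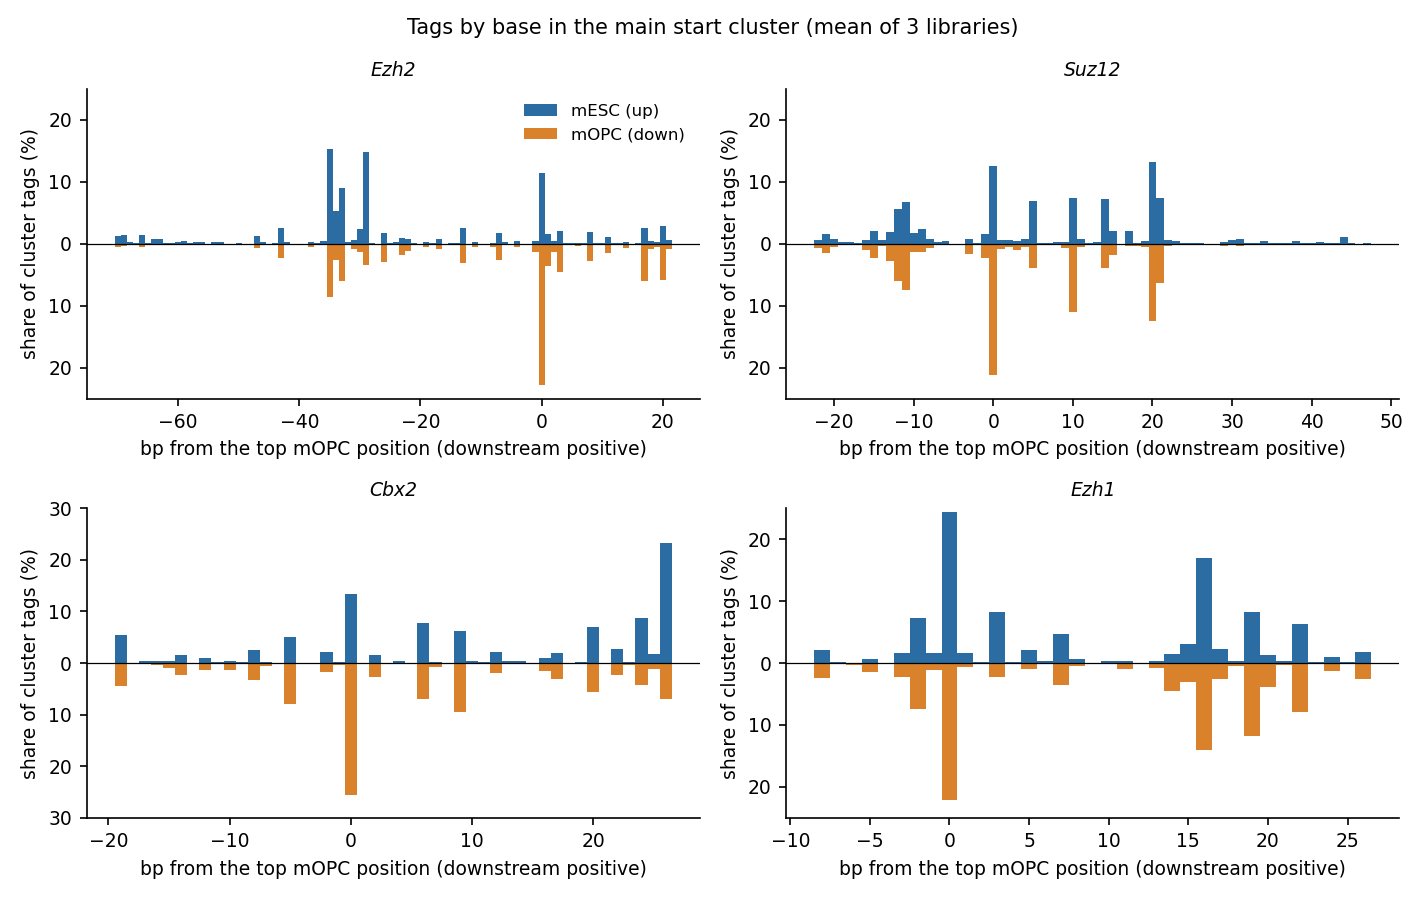
Share of the tags of the main start cluster at each base (vertical axis, %, mean of 3 libraries; mESCs upward, mOPCs downward) against the distance in bp from the most used mOPC position, for Ezh2, Suz12, Cbx2 and Ezh1. The peak at 0 is higher in mOPCs for Ezh2 (22.8% against 11.5%), Suz12 (21.2% against 12.5%) and Cbx2 (25.6% against 13.4%), while the same base leads for Ezh1 in both lines. Position 0 was picked for having the most mOPC tags, which by itself favours a higher mOPC peak there.

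RefSeq promoter windows (GRCm38.p6, 250 bases before to 50 after a start) were found for 9 of the 10 members, 11 windows in all. CpG dinucleotides per window ranged from 2, at a minor Mtf2 start, to 41 for Suz12, against a median of 7 over 32851 windows. The TATA word TATAAA, searched on both strands, was in 1 window, of Jarid2, and in 13.6% of all windows. The E2F words TTTCGCGC, TTTGGCGC, TTTCCCGC and TTTGCCGC, again on both strands, were in 2.26% of all windows. Ezh2 held TTTGGCGC and Suz12 held TTTCCCGC, and no other member window held such a word. A match of this kind describes the letters only. The windows also do not cover every start described above. The Phc1 window, chr6:122340178-122340477, lay outside the Phc1 clusters given. The sequence printed above for the Phc1 start used in mESCs also holds the E2F word TTTCCCGC, at bases outside that window. The windows of Eed, Cbx7, Jarid2 and Cbx6 left out the positions 89980560, 79971124, 44731332 and 79834238.

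Over the 39 other Polycomb genes examined, 19 were higher in mOPCs, 18 lower and 2 did not pass the test, with a median log2 fold change of 0.08 against -1.49 for the 10 members. Members and lists were chosen with earlier results of these data known, so the contrast describes these lists only. Of all genes tested, 42.1% were higher and 48.9% lower, so the counts by role below say little by themselves. In the PRC2 core 5 of 6 genes were lower and 1 higher, while of Cbx2, Cbx6, Cbx7 and Cbx8 3 were higher and 1 lower. PRC2 accessory genes had 2 higher and 5 lower of 8, the RING and PCGF genes of PRC1 4 and 4 of 8, and the Phc and Scm genes 3 and 2 of 5. Accessory genes of variant PRC1 had 5 higher and 6 lower of 12, and the enzymes that remove or oppose Polycomb marks 4 and 2 of 6.

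Among the PRC2 accessory genes, Epop, which links PRC2 to elongin in stem cells, had the strongest fall with values in both lines, from 75.0 ± 6.83 CPM to 0.776 ± 0.198 CPM (log2 fold change -6.56). Aebp2, found in the form of PRC2 that holds Jarid2, rose from 31.3 ± 3.31 CPM to 101 ± 8.19 CPM (1.65). AU022751, the annotation's symbol for the PRC2 inhibitor Ezhip, had 61 tags over the mESC libraries and none in mOPCs, at least 25.5-fold less with the floor of 3 tags.

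The shares of further PRC1 paralog pairs also differed. Rnf2, the main ubiquitin ligase of PRC1, fell from 72.7 ± 7.47 CPM to 30.3 ± 2.09 CPM, and Ring1 rose from 4.07 ± 0.195 CPM to 8.94 ± 1.31 CPM. The share of Rnf2 in the tags of the pair went from 94.7% ± 0.472 to 77.3% ± 1.59. Pcgf2 and Bmi1 are the PCGF proteins of canonical PRC1. Bmi1 rose from 10.8 ± 0.331 CPM to 52.8 ± 3.01 CPM (log2 fold change 2.26), and Pcgf2 fell from 49.8 ± 4.55 CPM to 22.3 ± 2.71 CPM. The share of Bmi1 in the pair went from 18.0% ± 1.73 to 70.3% ± 2.42. Yaf2, which competes with Rybp for a place in variant PRC1, rose from 7.89 ± 0.436 CPM to 89.7 ± 5.12 CPM (3.49). Rybp fell from 8.88 ± 1.06 CPM to 4.18 ± 0.632 CPM, and the share of Yaf2 in the pair went from 47.2% ± 4.42 to 95.5% ± 0.816. These shares too had exact permutation p = 0.1, the smallest possible.

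The remaining large changes concerned single genes. Scmh1 and Scml2, both Scm proteins that bind Phc proteins, moved apart, at 2.01 and -3.02 on the log2 scale. Mga (-2.16), L3mbtl2 (-2.05) and Wdr5 (-1.80) of variant PRC1 were lower in mOPCs. Usp7, a deubiquitinase found with PRC1, fell from 222 ± 10.8 CPM to 7.07 ± 0.697 CPM (-4.99). The log2 fold change of Usp7 was -7.38 in windows of 100 bp and -3.87 over the whole gene. Auts2 was higher in mOPCs (1.95) in windows of 500 bp, but lower (-0.35) in windows of 100 bp.

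**Figure D5:**
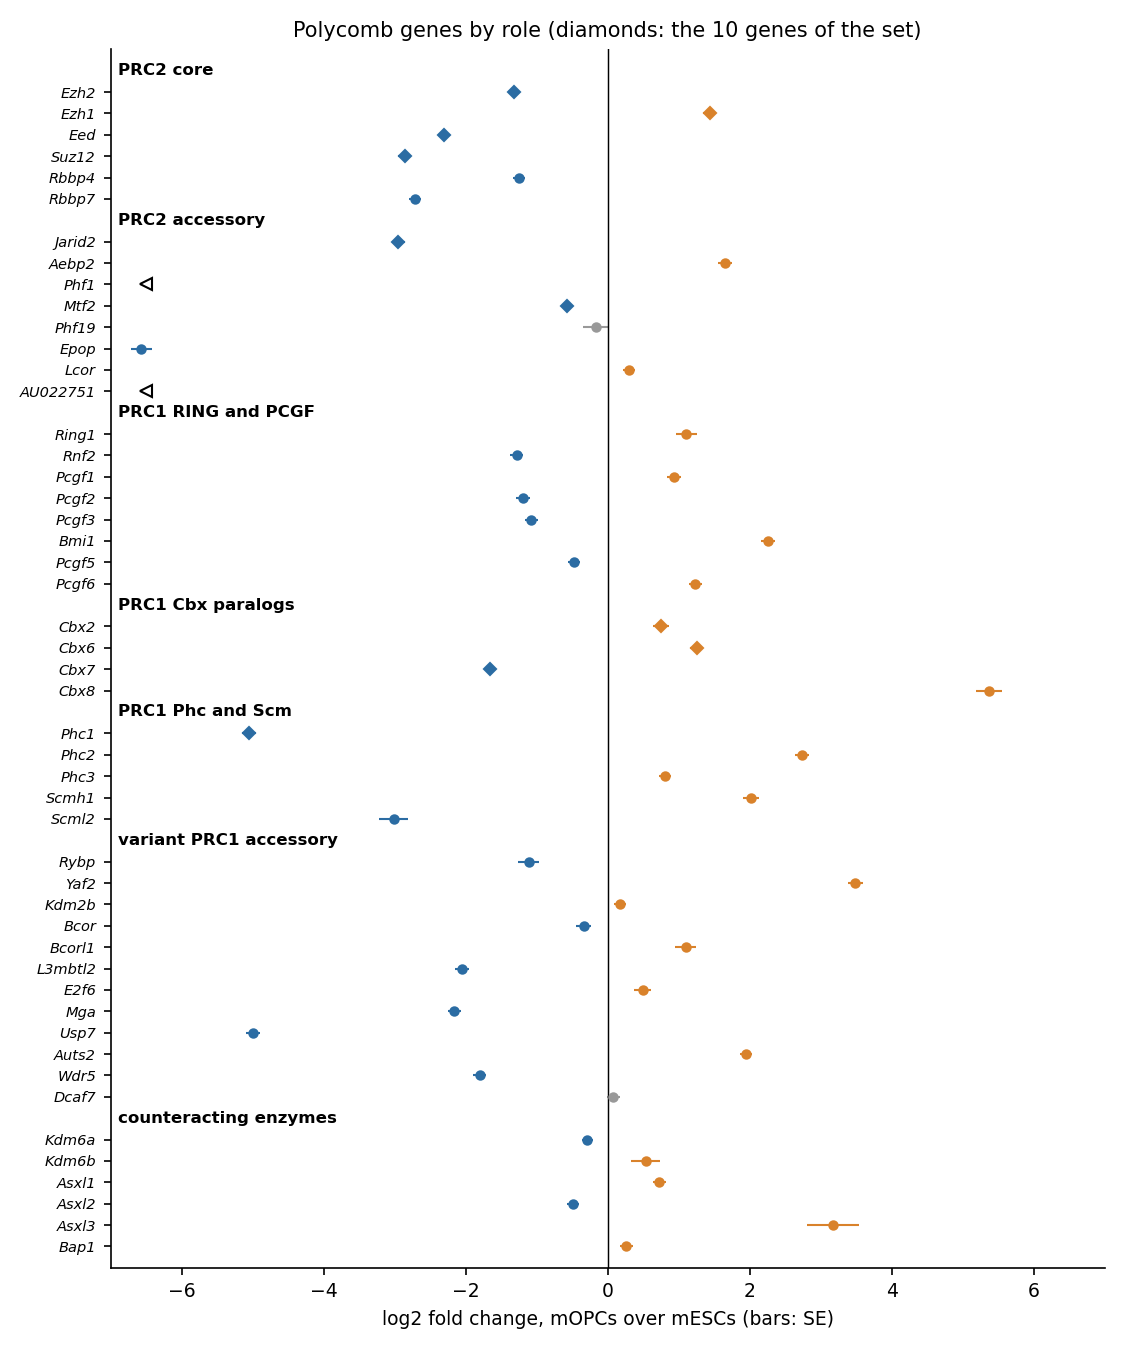
Log2 fold change (mOPCs over mESCs, bars are SE) of the 49 Polycomb genes by role. Diamonds mark the 10 members, orange and blue genes called higher or lower in mOPCs, and grey genes not called. Open triangles at the left edge mark 2 genes with no tag in mOPCs, which were called lower but whose fitted values are not plotted. Core PRC2 genes lie left of 0 apart from Ezh1 (1.44), and the Cbx genes plotted right of it apart from Cbx7 (-1.66).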

How the data were processed

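Nuclear RNA of 3 mESC and 3 mOPC libraries was measured by CAGE. Per the study's methods, the authors trimmed reads to tags, aligned them to mm10, kept unique alignments, and took the 5′ end as the start. The methods name bowtie for this, while the submitters' processing notes name BWA 0.5.9 and CASAVA 1.8. The deposited values are raw counts of tags per position and strand, with no normalization. Depth was 16657021 to 40928704 tags per library. Because molecules were not barcoded, intervals and floors reflect counting error alone.

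Counts within 500 bp of GENCODE vM21 5′ ends were summed per gene and start region. Genes passing filterByExpr were compared with the quasi-likelihood test of edgeR 4.0.16 (R 4.3.3, TMM, robust, Benjamini-Hochberg adjusted p under 0.05). Use of starts was compared with diffSpliceDGE, with Simes p-values per gene. Shares were compared by exact permutation of libraries, those of Cbx genes over Cbx2, Cbx6, Cbx7 and Cbx8. One gene of the planned lists is not reported here and was left out of every share, list and figure. Replicates differed by more than sampling noise (chi-square per degree of freedom 5.52 to 13.8), so none was counted as a duplicate. Scripts (Python 3.11.15) were tested on simulated data. Alternatives were DESeq2 1.42.0, its size factors, scaling to library totals, no filter, 100 bp windows, whole genes, positions of 1 gene only, a replicate block, and each library left out. The genes named are the 10 members, Cbx8, and up to 15 other Polycomb genes with adjusted p under 0.05, groups that do not overlap and at least 5 CPM in the higher line, taken by size of change. Genes named beyond these (Phf1, Phf19, AU022751, Phc3, Rybp, Ring1, Pcgf2) complete a paralog family or were named after their values were seen. The members and gene lists were chosen with earlier results of these data known. Sequences are from RefSeq promoter windows (GRCm38.p6) and GENCODE vM21 transcripts.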

Additional observations from a re-analysis of the deposited data

How the results depend on the processing

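All 10 members kept their direction and side of the threshold under every alternative that could test them, with members higher in mOPCs numbering 3, or 2 without the positions shared with Npcd, where Cbx6 could not be tested. Leaving out the filter moved the median log2 fold change of all genes by 0.13, and other scalings moved it less. The calls over all genes ranged from 7124 to 10157 higher and 7959 to 10990 lower. The Ezh2 share moved by less than the SD. Values that moved more were the differences of Cbx shares (mOPC minus mESC, percentage points): with unshared positions 13.2 for Cbx2, 0.162 for Cbx6 and -34.8 for Cbx7, with 100 bp windows 5.03 for Cbx2, and over Cbx2, Cbx6 and Cbx7 alone 8.50, 32.4 and -40.9, the last 3 by construction of the denominator. Auts2 reversed to -0.35 with 100 bp windows, and the cause was not tested. For start region use, 5 members were called under each alternative except 100 bp windows, with 6, where merged regions split and Phc1 and Ezh2 were called (edgeR adjusted p = 1.98e-44 and 4.36e-30) and Suz12 had too few regions to test.

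Deviations of samples with the same replicate number had correlations of 0.0198, 0.114 and 0.0222. Those with different numbers ran from -0.147 to 0.112. With 3 libraries per line this check cannot exclude pairing, so a replicate block was fitted as an alternative. With the replicate block 7794 genes were higher and 9039 lower, region use was called in 2265 genes, and no member changed its call. The shallowest library limits what can be said of genes below 1 CPM, and 3 libraries against 3 limit each permutation test to p = 0.1.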
